A study of Mus musculus with 7 samples.

Results

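Cerebral pericytes transduced with Olig2 and Sox10 (PC-2F) were set against primary oligodendrocyte progenitor cells (pOPC), to see which progenitor genes reached the primary level, which were missing and which stood above it. The members were all cells of these groups with at least 500 unique molecular identifiers (UMIs, each standing for 1 captured transcript) and under 20% mitochondrial UMIs: 179 cells of PC-2F and 134 of pOPC, 313 in all, out of 1140 barcodes in the series. Of the 7 libraries of the series these are 2, and every population was sequenced as 1 library, so the differences below are descriptions of these libraries without replicates or tests. All populations came from C57BL/6 mice. PC-2F started as primary brain pericytes, the mural cells of capillaries, and received viruses carrying both factors. pOPC were brain progenitors that received no virus. Untransduced pericytes (PC, 290 cells) show what the donor expressed, and pericytes given Olig2, Sox10 and Nkx6-2 (PC-3F, 147 cells) are set beside PC-2F where they help to read a value. Pericytes grew in their own medium, and the labels give an OPC medium for primary and induced progenitors, so culture history, virus and cell origin cannot be told apart between PC-2F and pOPC. The time between transduction and capture is not given in the sources used here, and the labels name no reporter or sort, so cells that took up neither virus may be among the 179.

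Oligodendrocyte progenitors are the dividing glia that produce the myelinating oligodendrocytes of the central nervous system. Olig2, Olig1, Sox10 and Nkx2-2 are transcription factors of the lineage, PDGF receptor alpha carries the mitogenic signal that keeps progenitors dividing, and the cells receive synaptic input through AMPA-type glutamate receptors. Their surface carries chondroitin sulphate proteoglycans such as NG2 (gene Cspg4), brevican and neurocan. When they differentiate, Pdgfra and Cspg4 are switched off and genes for myelin proteins are switched on.

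The libraries held 1198987 UMIs in PC-2F and 632451 in pOPC, with medians of 6259 and 3958 UMIs per cell. The kept cells started at 926 UMIs in PC-2F and 525 in pOPC, and the 2 barcodes left out of pOPC held at most 461. Levels are given as CPM, the UMIs of a gene summed over the cells of a library and scaled to a library total of 1000000 UMIs. Intervals are 95% and hold only the error of counting UMIs. How much separate cultures vary is not known here. The tables list a gene only where it had at least 1 UMI in the library, with 1152 genes at exactly 1 UMI in PC-2F and 1187 in pOPC, and a gene without a row was read as 0 UMIs. In this scale 3 UMIs were 2.5 CPM in PC-2F and 4.74 in pOPC, and a gene with 0 UMIs in a library is compared as if it had 3 there, which gives a lower bound of the fold. The cultures also differed in sex-linked transcripts: the Y-linked genes Ddx3y, Eif2s3y and Kdm5d gave 38, 42 and 23 UMIs in pOPC and 0 in PC, PC-2F and PC-3F, while Xist gave 0 UMIs in pOPC and 27 in PC-2F, so sex cannot be told apart from the comparison either. No barcode was shared between the libraries.

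A gene was measured when it had at least 10 UMIs and 20 CPM in either library, which held for 8791 of 16383 genes. Each measured gene was placed in 1 of 5 classes by its ratio of PC-2F to pOPC. It stood above at 2-fold or more, and below at 2-fold or more lower, each with an interval that excludes equality. It was at the primary level when the whole interval lay within 2-fold either way, missing at 3 UMIs or fewer in PC-2F with the whole interval more than 4-fold lower, and otherwise unresolved. Of all measured genes 19.9% stood above, 26.4% were at the primary level, 18.3% stood below, 2.8% were missing and 32.6% were unresolved. The median log2 ratio over all measured genes was -0.20. Differences of at least 4-fold with the interval wholly beyond 2-fold were found upward in 961 genes (10.9%) and downward in 655 (7.45%).

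PC-2F held the progenitor markers, at lower summed levels than pOPC. Of 11 progenitor markers 10 had values and all 10 were above 3 UMIs in both libraries, and their summed level was 2804 CPM against 8458 in pOPC and 145 in PC. Olig2 and Sox10, which the viruses carried, are among these 10, so finding them says little about the cells' own genes. They gave 191 and 251 CPM of the PC-2F sum. Cspg4, which pericytes share, gave a further 675 CPM, while the untransduced donor held 55.7 CPM of it. When PC-2F cells were clustered alone they formed 4 clusters of 53, 44, 31 and 51 cells. Cluster 3 had 31 cells, or 17.3% of the library, and was led by Fbln2, Ctla2a and Tnfaip2. It held Sox10 at 9.47 CPM and Olig1 at 42.6 CPM, against 183 to 402 CPM and 224 to 672 CPM in the other clusters. Values without these 31 cells are given wherever they change the class of a gene named in a comparison or move its level by over 1.5 times, an alternative chosen after seeing the data. pOPC cells formed a cluster of 87 cells with a median of 2680 UMIs and another of 47 cells with a median of 7143.

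**Figure D1:**
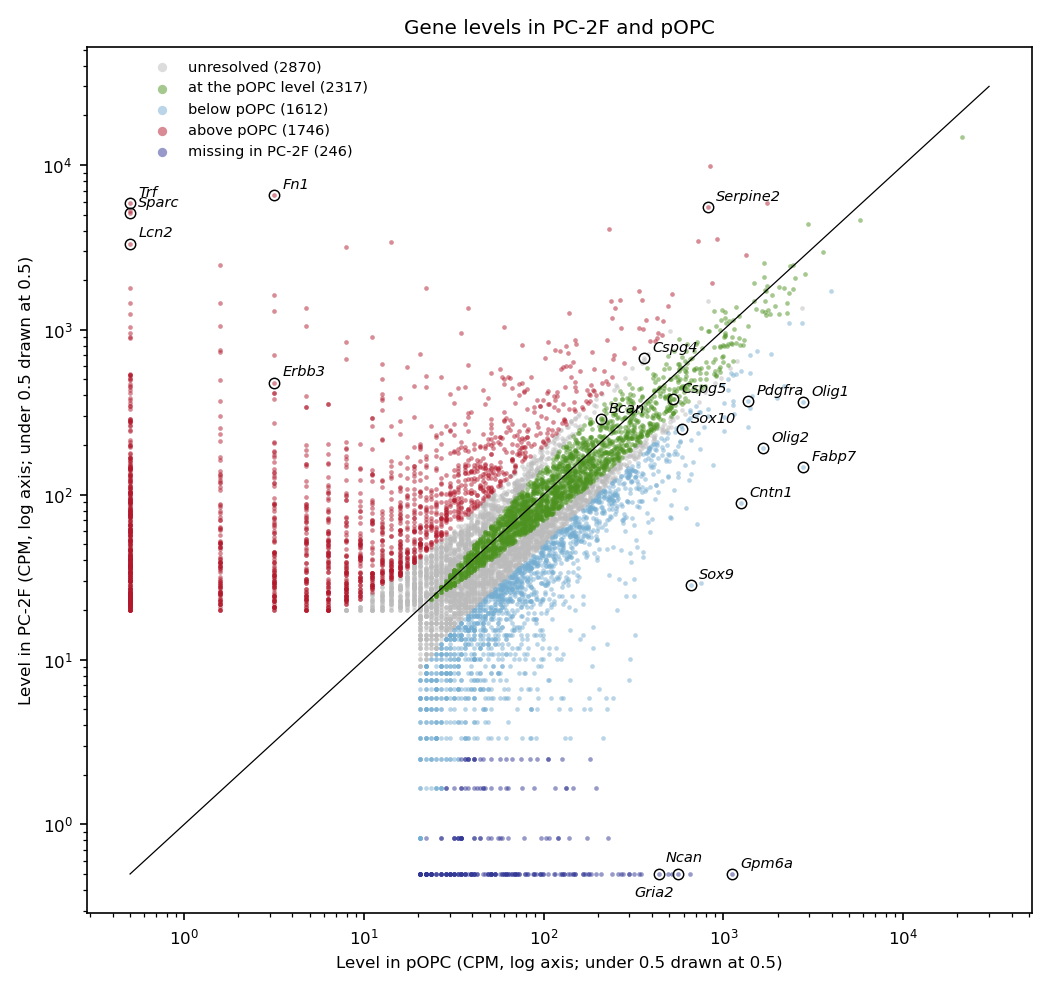
Levels of the 8791 measured genes in pOPC (x axis, CPM, log scale) and in PC-2F (y axis, CPM, log scale), 1 point per gene and coloured by class, with values under 0.5 drawn at 0.5 and the line of equality. Sparc and Trf lie at 0 UMIs in pOPC and above 5000 CPM in PC-2F, while Gpm6a and Ncan lie at 0 in PC-2F.

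Progenitor transcription factors stood below the primary level more often than at or above it. Of the 39 listed, 28 were measured: 2 stood above pOPC, 4 were at the primary level, 13 stood below, 3 were missing and 6 were unresolved, with a median log2 ratio of -1.34 against -0.20 over all measured genes. The other 11, among them Nkx6-2, Nkx6-1, Sox11 and Hes5, were under the minimum in both libraries or had no row. Nkx6-2 itself, which PC-2F did not receive, had 2 UMIs in PC-2F and 1 in pOPC. Without cluster 3 the counts were 3 above, 4 at the level, 10 below, 4 missing and 7 unresolved.

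Both transduced factors remained below the primary level, and PC had 0 UMIs of either. Olig2, the bHLH factor that specifies the lineage (chromosome 16, 91225457 to 91228677, plus strand, GRCm38), had 191 CPM in PC-2F (interval 167 to 217) and 1657 CPM in pOPC (1558 to 1761), 8.68-fold lower (7.51 to 10.1). Sox10, the SoxE factor that drives glial and myelin genes (chromosome 15, 79154908 to 79165240, minus strand), had 251 CPM (224 to 281) against 591 (533 to 654), 2.36-fold lower (2.02 to 2.75). Sox10 became unresolved without cluster 3, at 303 CPM. UMIs from the viruses and from the cells' own genes cannot be told apart in these counts.

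Their partner Olig1, which was not transduced, also had 0 UMIs in PC. It reached 363 CPM in PC-2F (330 to 399) against 2769 in pOPC (2640 to 2901), 7.63-fold lower (6.87 to 8.50). To compare cells at equal depth, each was thinned to 1000 UMIs, which left 178 cells of PC-2F and 116 of pOPC. Olig1 was then detected in 21.9% of PC-2F cells (exact binomial interval 16.1% to 28.7%) and 97.4% of pOPC cells (92.6% to 99.5%). Olig2 was detected in 15.7% (10.7% to 21.9%) and 77.6% (68.9% to 84.8%), and Sox10 in 19.7% (14.1% to 26.3%) and 45.7% (36.4% to 55.2%). PC, the background for these shares with a median of 3775 UMIs per cell, gave 0 UMIs of all 3 genes, with an interval up to 2.855 CPM. Before thinning, Olig2 was seen in 45.8% of PC-2F cells and 93.3% of pOPC cells. Within PC-2F, cluster 4 had the most Olig2, 429 CPM, and even there the level was under the 1647 and 1665 CPM of the pOPC clusters. Sox10 in cluster 4, 402 CPM, lay closer to the 546 and 626 CPM of pOPC.

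Other Sox factors fell into different classes. Sox9, a SoxE factor of glial precursors, had 28.4 CPM in PC-2F, 658 in pOPC and 442 in PC, so PC-2F stood 23.2-fold below pOPC (16.3 to 34.0) and also under its own donor. Without cluster 3 it was at 2.02 CPM and missing. Sox2, which marks neural stem cells and progenitors, had 134 CPM against 661, 4.92-fold lower (4.09 to 5.94), from 0 UMIs in PC. Sox3, its close relative, had 0 UMIs in PC-2F against 99.6 CPM, at least 39.8-fold lower. Of the SoxD factors, Sox5 was at the primary level at 42.5 against 49.0 CPM (unresolved without cluster 3), while Sox6, at 91.7 against 289 CPM, stood below. Sox4 was at the level with 104 against 109 CPM.

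Zfp488, an oligodendrocyte zinc-finger factor, was missing, with 2 UMIs against 44.3 CPM. Nkx2-2, which acts at the step from progenitor to oligodendrocyte, had 20.9 against 109 CPM. The POU factor Pou3f1 had 48.4 against 331 CPM. Etv5, an ETS factor downstream of FGF and MAPK signals, had 159 against 160 CPM, and Tcf4, an E-protein partner of Olig factors, had 818 against 702, both at the primary level. The 2 factors above it, the Notch target Hes1 at 82.6 against 11.1 CPM and Zbtb20 at 403 against 72.7 CPM, were also high in PC, at 85.1 and 477 CPM.

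Receptors and signalling genes lay on both sides of the primary level. Of 42 listed 29 were measured, of which 8 stood above, 8 were at the level, 7 stood below, 4 were missing and 2 were unresolved, with a median log2 ratio of -0.04. Pdgfra, the PDGF receptor of progenitors (chromosome 5, 75152292 to 75198215, plus strand), had 371 CPM (338 to 407) against 1374 in pOPC (1284 to 1469), 3.70-fold lower (3.29 to 4.16). PC already held 88.2 CPM of it and PC-3F held 537. At 1000 UMIs, Pdgfra was detected in 32.6% of PC-2F cells (25.8% to 40.0%) and 71.6% of pOPC cells (62.4% to 79.5%), and in 7.87% of PC cells. The receptor phosphatase Ptprz1 had 151 against 873 CPM and the endothelin receptor Ednrb had 29.2 against 283, both from 0 UMIs in PC.

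The neuregulin receptors went opposite ways. Erbb3, best known from Schwann cells, had 478 CPM in PC-2F against 2 UMIs in pOPC, 151-fold higher (41.7 to 1251), with 0 UMIs in PC. Erbb4, in contrast, had 6.67 CPM against 50.6. Notch ligands were missing, with 2 UMIs each of Dll1 and Dll3 in PC-2F against 63.3 and 133 CPM in pOPC. Lrrn1, a leucine-rich repeat membrane protein, was missing as well, at 0 UMIs against 149 CPM, at least 59.4-fold lower, and so was the adenosine receptor Adora1, at 0 UMIs against 20.6 CPM.

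Feedback inhibitors of receptor tyrosine kinases were at the primary level, with Spry1 at 216 against 172 CPM, Spry2 at 317 against 329 and Spry4 at 90.9 against 93.3. Spry4 was unresolved without cluster 3. The phosphatase Dusp6, another target of MAPK signalling, stood above at 344 against 94.9 CPM, 3.62-fold. Fgfr1 was at the level with 274 against 180 CPM, and the donor held 382. Among the orphan receptors of the lineage, Gpr17 had 111 against 88.5 CPM and Gpr37l1 had 103 against 127, both from 0 UMIs in PC and both at the level. Gpr17 became unresolved without cluster 3. In PC-2F these were uneven: cluster 4 held 240 CPM of Gpr17 and 243 of Gpr37l1, and cluster 3 held 14.2 and 0. Above the level stood the sulphatase Sulf2 with 1728 against 337 CPM, Il1rap with 451 against 131 and the lysophosphatidic acid receptor Lpar1 with 89.2 CPM against 0 UMIs, at least 18.8-fold.

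**Figure D2:**
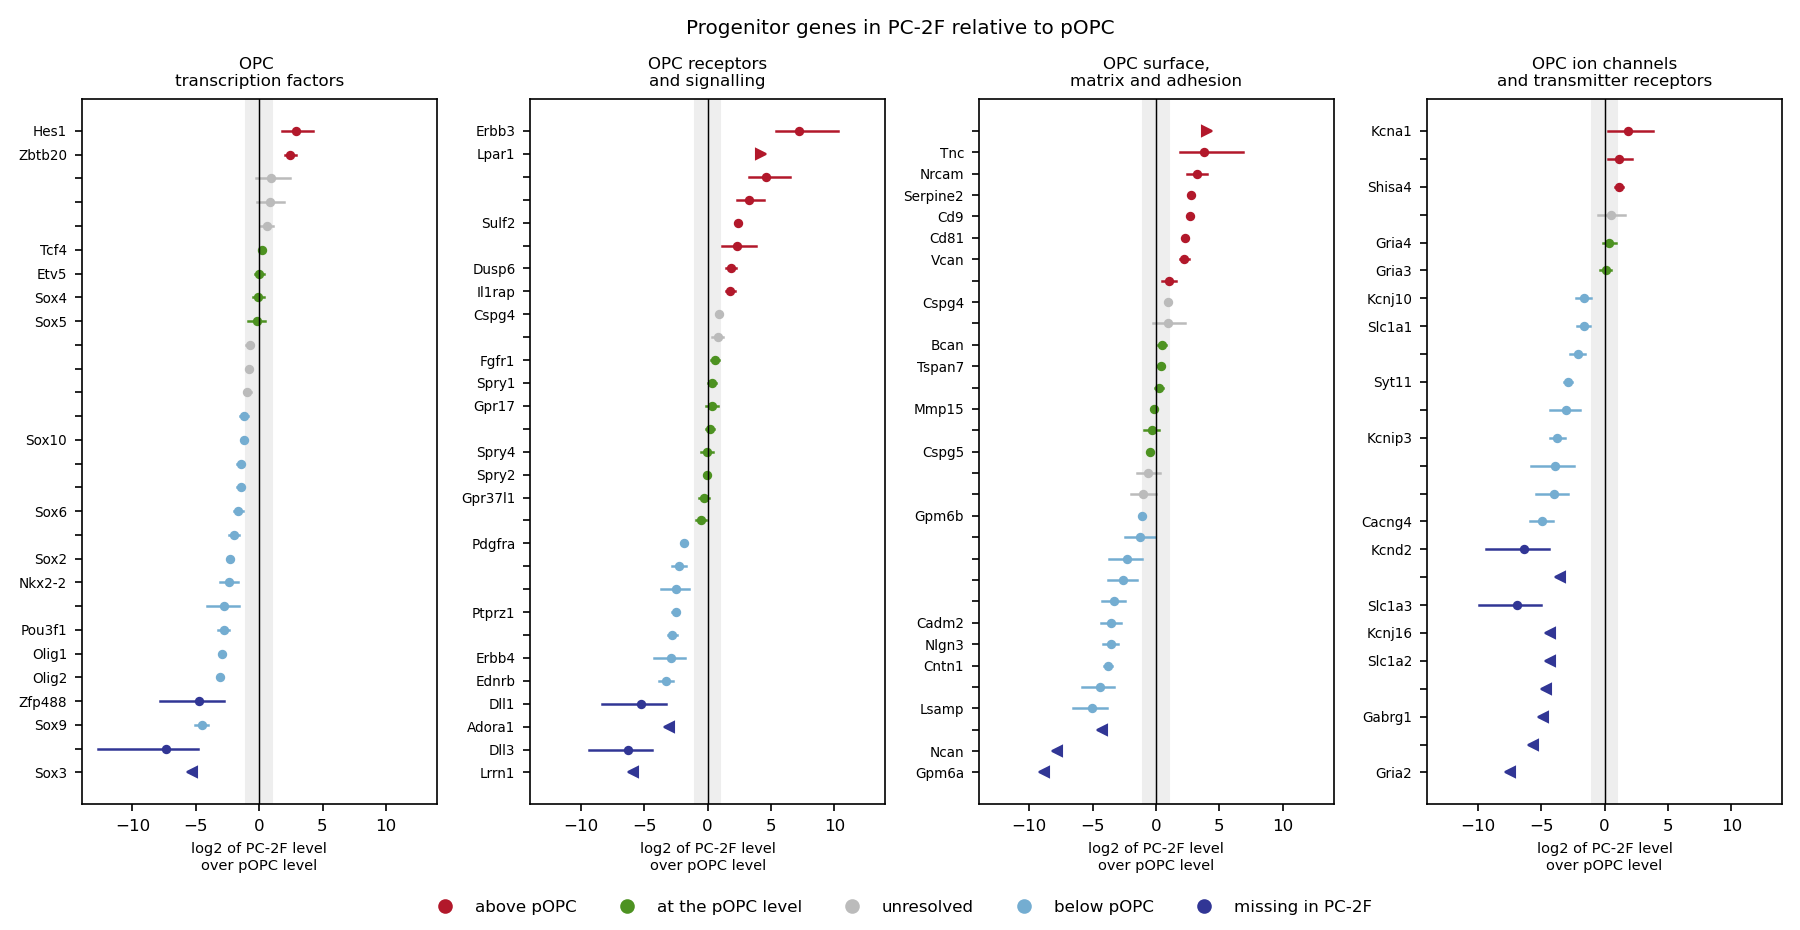
Log2 ratio of PC-2F to pOPC (x axis) for the measured members of the 4 progenitor lists, 1 panel per list, with 95% counting intervals, triangles where a library had 0 UMIs and the point is a bound, and a grey band for 2-fold either way. Gene names are drawn only for genes described in the text. The ion channel panel lies mostly to the left, with 18 of 24 genes below or missing, and the receptor panel lies on both sides, with 8 of 29 above and 11 of 29 below or missing.

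Surface and matrix genes ranged from absent to well above the primary level. Of 40 listed 31 were measured: 8 above, 6 at the level, 10 below, 3 missing and 4 unresolved, with a median log2 ratio of -0.46. The chondroitin sulphate proteoglycans fell into 4 of the classes, with Ptprz1 in the fifth. Neurocan (Ncan) had 0 UMIs in PC-2F against 560 CPM in pOPC, at least 224-fold lower. Brevican (Bcan) was at the level with 286 CPM (PC 0 UMIs) against 207, 1.38-fold higher (1.12 to 1.70), and so was Cspg5 with 381 against 525. Cspg4, the NG2 proteoglycan shared by pericytes and progenitors, was unresolved at 675 against 361 CPM, 1.87-fold higher (1.61 to 2.17), and stood above without cluster 3, at 753 CPM. PC held 55.7 CPM of Cspg4. Versican (Vcan) stood above, at 577 against 125 CPM, with 303 in PC.

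The related membrane proteins Gpm6a and Gpm6b, of the proteolipid family, also differed from each other. Gpm6a had 0 UMIs in PC-2F against 1118 CPM in pOPC, at least 447-fold lower, the lowest ratio of all genes at 100 CPM or more. Gpm6b had 530 against 1129 CPM, 2.13-fold lower, and was unresolved without cluster 3. Adhesion molecules of axon and synapse contact went both ways, and 4 of those below are given here. Contactin 1 (Cntn1) had 89.2 against 1246 CPM, 13.96-fold lower (11.4 to 17.3). Nlgn3 had 24.2 against 288 CPM, Lsamp had 5.00 against 168 and Cadm2 had 14.2 against 164.

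Tspan7 at 440 against 337 CPM and Mmp15 at 334 against 365 were at the primary level, from 0 and 1.55 CPM in PC. Above it stood the protease inhibitor Serpine2, at 5578 against 816 CPM (6.84-fold), with 75.8 in PC. The tetraspanins Cd9 and Cd81 stood above too, at 1495 against 236 and 3452 against 719 CPM. So did the cell adhesion molecule Nrcam at 232 against 25.3 CPM and the matrix glycoprotein tenascin C (Tnc) at 43.4 against 3.16 CPM.

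Ion channels and transmitter receptors had the lowest median ratio of the 4 progenitor lists. Of 40 listed 24 were measured: 3 stood above, 2 were at the level, 9 stood below, 9 were missing and 1 was unresolved. The median log2 ratio was -3.71, or -3.60 with absent genes at their bound. These counts did not change without cluster 3. AMPA receptor subunits split: Gria2, which sets calcium permeability of the receptor, had 0 UMIs in PC-2F against 438 CPM in pOPC (at least 175-fold lower), while Gria3 at 111 against 104 CPM and Gria4 at 97.6 against 75.9 were at the level. Cacng4, an auxiliary AMPA receptor subunit, had 10.01 against 300.4 CPM, 30.02-fold lower, and 6.07 CPM without cluster 3. PC held 55.7 CPM of Gria3 and 27.1 of Gria4, and 0 UMIs of Gria2 and Cacng4.

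Potassium channel genes followed the same direction in part. Kcnd2, a channel of the A-type current, had 2 UMIs against 133 CPM, and its partner Kcnip3 had 24.2 against 318, 13.1-fold lower. Kcnj10, the glial inward rectifier, had 34.2 against 106 CPM, Kcnj16 had 0 UMIs against 49.0, and Kcna1 stood above at 22.5 against 6.33. The GABA receptor subunit Gabrg1 had 0 UMIs in PC-2F against 71.2 CPM. The glutamate transporters Slc1a3 and Slc1a2, at 2 and 0 UMIs against 196 and 50.6 CPM, were missing. Slc1a1 stood below at 44.2 against 139. The synaptotagmin Syt11 had 83.4 against 618 CPM, and Shisa4 stood above at 373 against 172.

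The 4 lists together hold 111 measured genes, Cspg4 counted once: 21 above, 20 at the level, 39 below, 19 missing and 12 unresolved. Of the 21 above, 13 were at 20 CPM or more in PC. Over all measured genes 74.9% were at that level in PC, and 74.8% of all genes above pOPC were.

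A broader set was taken from the data: genes at 100 CPM or more in the odd-numbered pOPC cells and at least 4-fold above PC, with the interval beyond 2-fold. The 346 genes found were then read in PC-2F against the other 67 pOPC cells. These cells set the class, and the levels printed are those of the whole libraries. Of the genes, 10 stood above, 37 were at the primary level, 206 stood below, 45 were missing and 48 were unresolved, a share of 13.6% at or above the level and 13.0% missing. The choice against PC favours genes that a pericyte-derived culture lacks, and the pOPC cells for choice and for reading come from 1 library, so the counts describe these libraries only. At the level were Gatm, the enzyme that makes the precursor of creatine, at 590 against 704 CPM (6.97 in PC), Gng12, a G protein subunit, at 593 against 818, and Spon1, a secreted matrix protein, at 309 against 248. Above it were Tmem176b at 1028 against 340 CPM, and the adhesion molecule Chl1 at 471 against 228 with 0 UMIs in PC. Of all 346, 35 had 0 UMIs in PC-2F. Beside Gpm6a, Ncan and Gria2 the most abundant of these in pOPC were Sall3, a zinc-finger factor, at 519 CPM, Bex2 at 490, the protein kinase C gene Prkcb at 348, the nucleosome assembly gene Nap1l5 at 337, the TrkB receptor Ntrk2 at 299 and the POU factor Pou3f3 at 299. In PC Nap1l5 had 5 UMIs and the other named genes 0.

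Glial lipid carriers and cytoskeletal genes went both ways. Of 32 such genes 29 were measured: 7 stood above, 5 at the level, 14 below, 1 missing and 2 unresolved. Fabp7, the brain fatty-acid-binding protein, had 147 CPM in PC-2F (126 to 170) against 2773 in pOPC (2645 to 2906), 18.9-fold lower (16.2 to 22.2), and was found in 11.8% of PC-2F and 89.7% of pOPC cells at 1000 UMIs. Fabp7 was singled out after its values were seen. Crmp1, a collapsin response mediator, had 5.00 against 226 CPM and was missing without cluster 3, and the stathmin Stmn3 had 0 UMIs against 183. In the opposite direction, the lipocalin Apod had 1293 CPM against 3.16 (2 UMIs), 409-fold higher (113 to 3379), and S100b had 716 against 20.6.

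Genes of later stages stood above the primary level more often than below it. Among 24 measured genes of committed progenitors and differentiation 12 stood above, 2 were at the level, 5 below and 5 unresolved, with a median log2 ratio of 1.11. Of the 12 above, 7 were at 20 CPM or more in PC. Myrf, the transcription factor that switches on myelin genes, had 112 CPM against 1 UMI in pOPC, 70.7-fold higher (12.5 to 2812). Enpp2, a secreted lysophospholipase, had 757 against 115 CPM and Zfp536 had 118 against 26.9. In contrast Bcas1, a marker of early myelinating cells, had 41.7 against 357 CPM and the kinase Fyn had 215 against 658.

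Of 24 measured myelin genes 19 stood above pOPC, 1 was at the level, 1 stood below and 3 were unresolved. Their median log2 ratio was 3.37, or 2.74 with absent genes at their bound. Of the 19, 5 were at 20 CPM or more in PC. Cnp, an enzyme of myelin-forming cells, had 581 against 191 CPM, Gjc3, a glial connexin, had 379 CPM against 2 UMIs, and the adhesion protein Mag and the proteolipid Mal had 52.5 and 75.1 CPM against 0 UMIs, at least 11.1-fold and 15.8-fold higher. The myelin genes did not move as a block. Mbp, myelin basic protein, was unresolved at 29.2 against 20.6 CPM, Cldn11 was unresolved at 93.4 against 66.4, and Mog was under the minimum with 19 UMIs in PC-2F.

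Schwann cell and neural crest genes are described beside these, since Sox10 and Erbb3 act in that lineage too. Of 27 measured, 14 stood above, 4 at the level, 7 below and 2 unresolved. Of the 14 above, 6 were at 20 CPM or more in PC. Without cluster 3 the number above was 15. Beside Erbb3, the adhesion gene L1cam had 125 CPM against 0 UMIs (PC 101), and the crest factors Tfap2b and Twist1 had 81.7 and 75.1 CPM against 0 UMIs, with 52.6 and 191 CPM in PC.

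**Figure D3:**
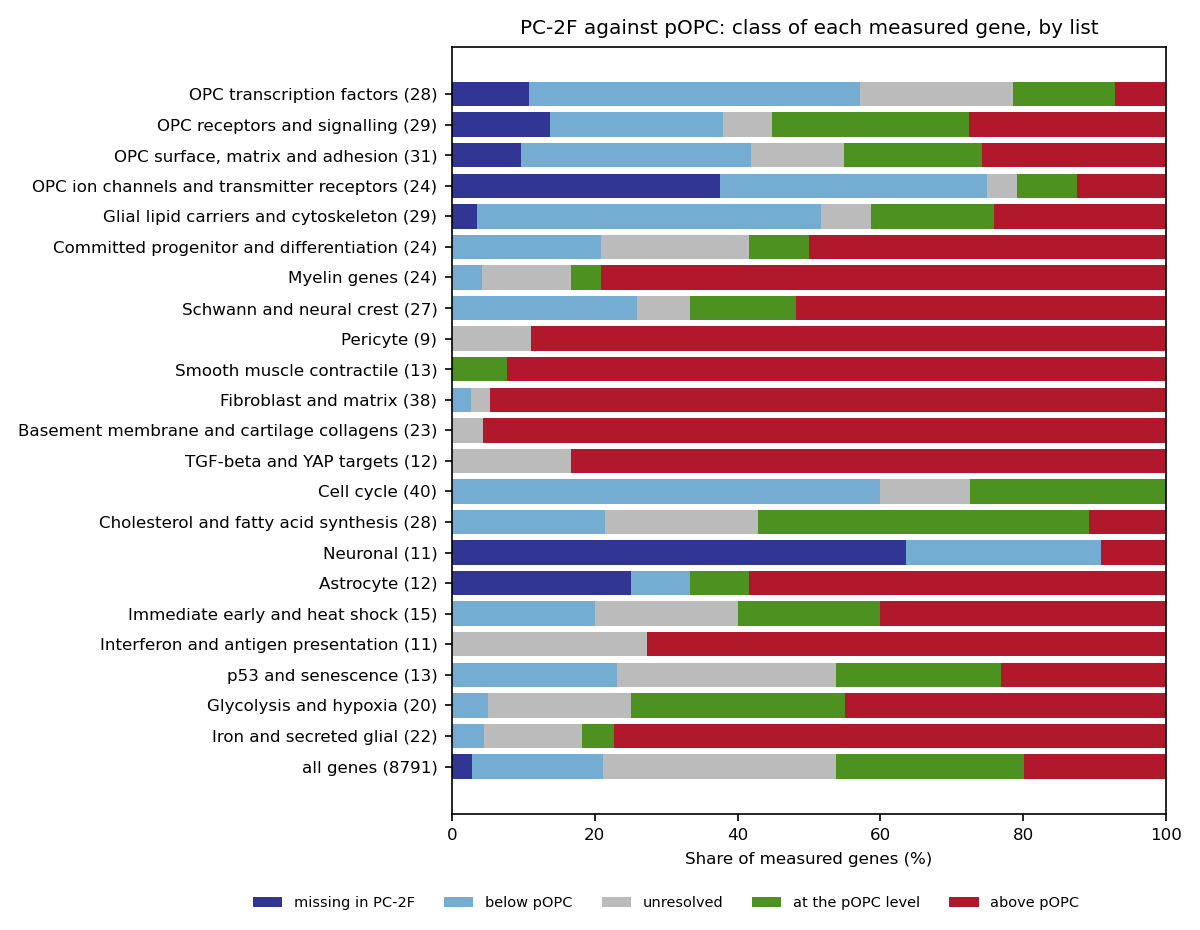
Share of measured genes in each class (x axis, percent) for lists with at least 9 measured genes and for all measured genes, 1 stacked bar per list. Ion channels have the widest missing share of the 4 progenitor lists, 9 of 24, and matrix genes are nearly all above, 36 of 38.

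The highest ratios at 100 CPM or more belonged mostly to secreted and matrix proteins. Transferrin (Trf), an iron carrier made by oligodendrocytes, had 5873 CPM in PC-2F (5736 to 6011) and 0 UMIs in pOPC, at least 1238-fold higher, and PC held 33.3 CPM. Serpina3n, an acute-phase protease inhibitor, had 5226 CPM against 0 UMIs (PC 10.8), Lcn2, an iron-siderophore-binding lipocalin, had 3334 against 0 (PC 0), and the ferroxidase ceruloplasmin (Cp) had 1798 against 0 (PC 197). Of 22 measured iron-handling and secreted genes 17 stood above, and 14 did without cluster 3. Of the 17 above, 11 were at 20 CPM or more in PC. Cluster 1 held 5859 CPM of Lcn2 and cluster 4 held 340, while Trf lay between 2789 and 8944 CPM in the 4 clusters.

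Fibroblast and matrix genes were nearly all above the primary level. Of 38 measured fibroblast and matrix genes 36 stood above, of which 31 were at 20 CPM or more in PC. Their median log2 ratio was 7.76, or 5.74 with absent genes at their bound. Without cluster 3 the number above was 32 of 38. Sparc, a collagen-binding matrix protein, had 5128 CPM against 0 UMIs (at least 1081-fold higher), was at 2846 in PC and lay between 4045 and 5652 CPM in all 4 PC-2F clusters. Fibronectin (Fn1) had 6554 CPM against 2 UMIs, 2073-fold higher (574 to 17116), with 676 in PC. The collagen-processing enhancer Pcolce had 1043 CPM against 0 UMIs, and periostin (Postn) had 909 against 0, with 649 and 10.1 CPM in PC. Of 23 measured basement membrane and cartilage collagen genes 22 stood above, among them Col4a1 at 1621 CPM against 2 UMIs. Of these 22, 12 were at 20 CPM or more in PC.

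Other mesenchymal lists had the same direction. Of 12 measured targets of TGF-beta and YAP 10 stood above, including Ctgf at 1244 CPM against 0 UMIs and Axl at 412 against 2. Of 13 contractile genes 12 stood above, and 9 did without cluster 3. Of 9 measured pericyte genes 8 stood above, including Foxc1 at 129 CPM, Pdgfrb at 83.4 and Tbx18 at 36.7, each against 0 UMIs. Of the genes above, those at 20 CPM or more in PC were 9 of 10 TGF-beta and YAP targets, 11 of 12 contractile genes and 4 of 8 pericyte genes. Pdgfrb, the receptor that defines mural cells, was uneven within PC-2F: 459 CPM in cluster 3 and 0 to 6.53 CPM in the others, and 3.04 CPM and unresolved without cluster 3. Acta2, smooth muscle actin, had 92.6 CPM in all cells and 32.4 without cluster 3. Ccl2, a chemokine, had 1457 CPM in all cells and 426 without cluster 3, and biglycan (Bgn) had 891 and 209, each against 0 UMIs in pOPC.

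**Figure D4:**
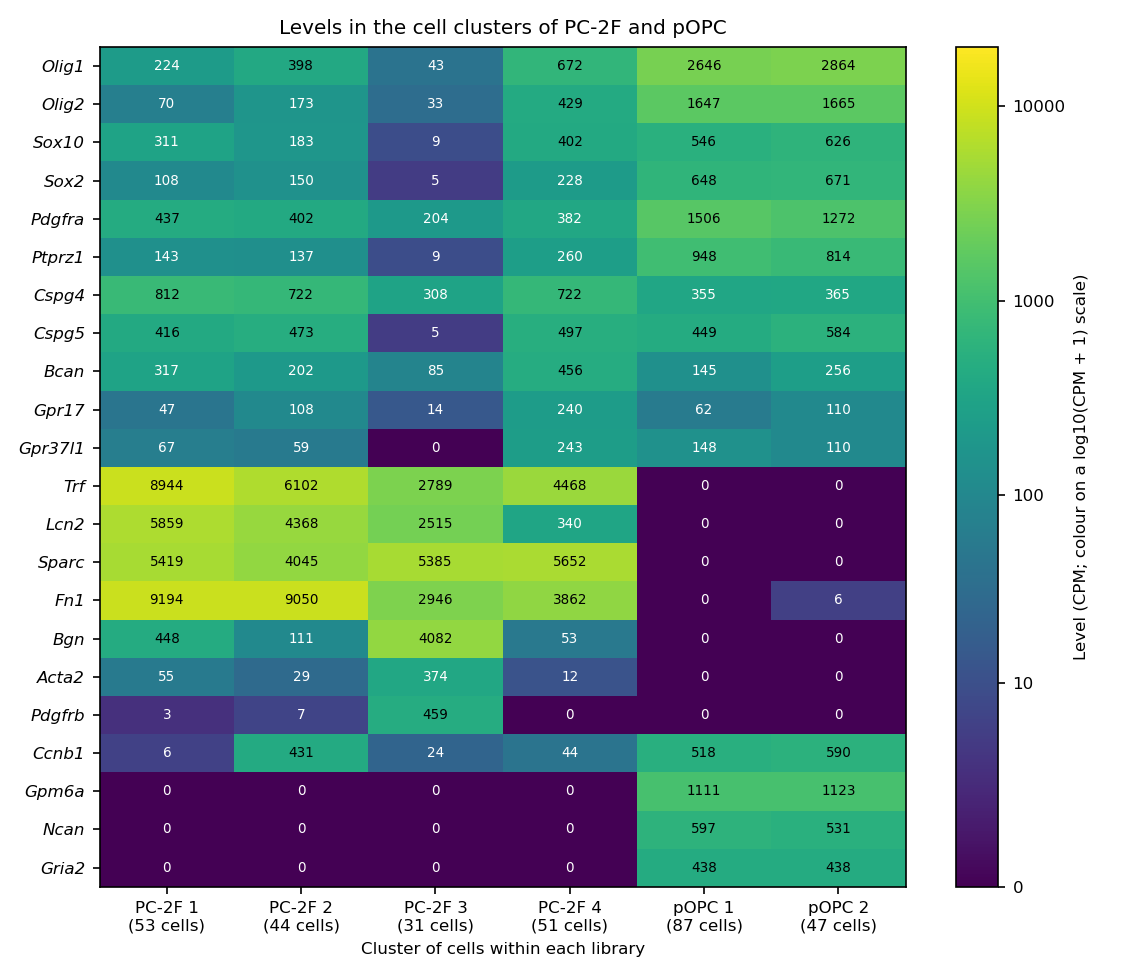
Levels (CPM, printed in each cell, colour on a log10(CPM + 1) scale) of 22 genes in PC-2F clusters 1 to 4 and pOPC clusters 1 and 2. Olig2 ranges from 33.2 to 429 CPM across PC-2F clusters and is 1647 and 1665 CPM in the pOPC clusters, and Gpm6a, Ncan and Gria2 are at 0 in all 4 PC-2F clusters.

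Genes of the cell cycle were lower or level in PC-2F, and none of the 40 measured stood above: 11 were at the level, 24 below and 5 unresolved, with a median log2 ratio of -1.08. Ccnb1, the mitotic cyclin, had 128 against 558 CPM, the mitotic kinase Plk1 had 70.1 against 272, Bub1 had 17.5 against 90.1 and Cdc20 had 31.7 against 133. In PC-2F the cluster led by mitotic genes was cluster 2, of 44 cells. It held 430.9 CPM of Ccnb1, against 517.5 and 589.7 in the pOPC clusters and 5.82 to 44.4 in the other PC-2F clusters. Plk1 in cluster 2 was at 238.3 CPM, against 242.5 and 294.8 in the pOPC clusters. Cdc20 was at 104.5 against 115.8 and 146.0, and Bub1 at 45.7 against 86.9 and 92.7. Of 28 measured genes of cholesterol and fatty acid synthesis 13 were at the level, 6 below, 3 above and 6 unresolved. The early enzyme Hmgcs1, at 400 against 1439 CPM, stood below, while the regulator Srebf1 stood above at 286 against 50.6.

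Markers of other cell types moved with several of these lists. Of 11 measured neuronal genes 7 were missing, 3 stood below and 1 above. Nsg2 had 277 CPM in pOPC, the RNA-binding protein gene Elavl4 had 106 and doublecortin (Dcx) had 90.1, all with 0 UMIs in PC-2F. These genes lay in both pOPC clusters, Nsg2 at 264 and 286 CPM and Dcx at 94.1 and 87.0. Of 6 neuron markers 5 had values: they summed to 249.8 CPM in pOPC, where all 5 were above 3 UMIs, and to 50.9 in PC-2F, where Elavl4, Dcx and Snap25 were at 0. The only marker above 3 UMIs in PC-2F was Tubb3, which did not follow the others. It lay at 23.7 to 71.8 CPM in the PC-2F clusters and at 18.1 and 28.1 in the pOPC clusters. In PC the neuron markers summed to 50.3 CPM. The part of neurons in the missing synaptic and channel genes was not tested. Of 8 pericyte markers 5 had values: they summed to 661 CPM in PC-2F, mostly Mcam at 517, and to 26.9 in pOPC, where 4 were at 0. Their sum in PC was lower than in PC-2F, 360.6 CPM. Anpep was at 0 in PC-2F. Rgs5, a defining pericyte marker, was at 0 in PC itself but was seen in PC-2F. It lay at 113.5 CPM in PC-2F cluster 1, 55.5 in cluster 2 and 0 in clusters 3 and 4. Summed astrocyte markers were 251 CPM in PC-2F and 50.6 in pOPC, which in PC-2F was mostly Gja1, a connexin at 0 in pOPC that the donor held at 226 CPM, and in pOPC was all Slc1a2. Endothelial markers summed to 0.83 CPM in PC-2F and 0 in pOPC, and microglia markers to 4.17 and 4.74.

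The closeness of the whole profile to pOPC is given as a description, over the 8791 genes measured in PC-2F or pOPC. Genes of 1 library are not independent, and genes high only in PC or PC-3F are left out. The libraries also differ in depth, with 1292251 UMIs in PC, 1198987 in PC-2F, 634870 in PC-3F and 632451 in pOPC. The correlations are therefore not on equal terms. The Spearman correlation with pOPC was 0.53 for PC-2F, 0.54 for PC-3F and 0.49 for PC. For the absent genes PC-3F gave similar values: Gpm6a, Gria2 and Sall3 had 0 UMIs there too, but Ncan was at 44.1 CPM in PC-3F against 0 in PC-2F. Cntn1 went the other way, at 89.2 CPM in PC-2F and 0 UMIs in PC-3F.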

How the data were processed

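The 7 libraries were made with a 3′ kit on the ddSEQ system, per the labels' protocols, and the submitters' processing notes list STAR 2.5.3a, featureCounts 1.6.1, bcl2fastq 2.19.1.403 and UMI-tools 0.5.3 with the genome mm10, in no stated order. The values the authors deposited are of another kind than UMI counts. Each was read as the place, from 0, of a count in the text-sorted list of counts that occur, an inference that no label states and on which every level depends. Counts were recovered per block of barcodes with a smooth frequency model; codes with a probability above 0.99 held 95.94% to 97.88% of UMIs, and simulated codes came back exactly in 99.964% to 99.99% of entries, which assumes the reading and does not check it. The plan had assumed UMI counts and was otherwise kept.

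UMIs were summed over kept cells and divided by the library total. Levels carry exact Poisson intervals, and ratios exact binomial intervals conditional on both counts, at 95%. Log2 ratios use 0.5 added UMIs. Cells were thinned with a fixed seed, shallower cells being left out (1 of PC-2F, 18 of pOPC), and clustered with Scanpy 1.11.5 in Python 3.11.15. No doublet caller was run; 11 pOPC cells and 0 PC-2F cells held over 3 times their library's median UMIs. Coordinates are from GENCODE on GRCm38, the assembly of mm10.

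Named genes were the 12 genes highest and the 12 lowest in ratio among those with 30 UMIs and 100 CPM or more in 1 library (mitochondrial, ribosomal protein and unnamed Gm or Rik genes left out), the 12 most abundant pOPC-enriched genes at the level and missing, any measured member of the progenitor, committed and myelin lists, the 4 largest ratios of every other list, and a few fixed genes; only some are shown, a few are not reported here, and genes outside this rule (Fabp7, Chl1, Tmem176b, the genes of the closing observations on chromosome 4, cluster genes, summed markers and sex-linked genes) were chosen after their values were seen. The comparison and the 25 gene lists were chosen with earlier results of these data known.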

Additional observations from a re-analysis of the deposited data

How the results depend on the processing

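Of 32 named genes under 9 alternatives (barcodes at 1000 UMIs, trimmed-mean scaling, equal cell weights, no large cells, certain codes only, a minimum of 100 CPM, no minimum, no mitochondrial or ribosomal genes, no cluster 3), 288 values in all, 276 stayed within the counting interval and 12 moved beyond it. The minimum of 100 CPM and no minimum change only which genes are measured, so the ratios could not move under them. For genes with 0 UMIs in 1 library the interval is also open on 1 side. The count of 276 is therefore no measure of stability. The sign changed only for Nkx6-2, with 2 and 1 UMIs, whose log2 ratio went from -0.19 to 0.08 with trimmed-mean scaling and 0.09 without cluster 3. Genes at least 4-fold apart numbered 382 higher and 176 lower at a minimum of 100 CPM, against 961 and 655, and missing genes of the 4 progenitor lists 9 against 19, since fewer genes were measured. Trimmed-mean scaling shifted the median log2 ratio of all genes from -0.20 to 0.06, and gave 1110 higher and 536 lower. The log2 ratio of Sox10 went from -1.24 to -0.97 and that of Cspg4 from 0.90 to 1.17. Those of Olig1, Olig2 and Pdgfra went from -2.93, -3.115 and -1.89 to -2.67, -2.85 and -1.62. Pooled progenitor genes were then 25 above, 20 at the level, 35 below and 19 missing. The set taken from pOPC was chosen again under this scaling, so its members changed too. It then gave 12 above, 43 at the level, 141 below and 44 missing, against 10, 37, 206 and 45. Among the other moved values, Cspg4 was at 1.31 with equal cell weights and Olig1 at -2.76 with certain codes only. Thinned to 2000 UMIs, Olig2 was detected in 28.3% of PC-2F and 91.2% of pOPC cells, Sox10 in 30.7% and 74.7%, and Pdgfra in 48.2% and 92.3%, as shares of cells rise with depth. No paired analysis was possible because each population was 1 library. With 1 library a side no replicate could be left out. A gene at 0 UMIs may still be expressed, with a counting interval up to 3.077 CPM in PC-2F and 5.833 in pOPC.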

Other observations

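Interferon and antigen presentation genes were mostly above pOPC, while glycolysis, immediate early and p53 genes fell on both sides. Of 11 measured interferon and antigen presentation genes 8 stood above and 3 were unresolved: the antiviral membrane protein Ifitm3 had 280.2 CPM against 0 UMIs in pOPC, Bst2 28.4 against 0 (14.2 without cluster 3) and the immunoproteasome subunit Psmb8 25.9 against 0. PC held 206 CPM of Ifitm3 and 153 of Bst2. Of 20 measured glycolysis and hypoxia genes 9 stood above, 6 were at the level, 1 stood below and 4 were unresolved. P4ha1, a collagen prolyl hydroxylase subunit, had 190 CPM against 33.2. Of 15 measured immediate early and heat shock genes 6 stood above, 3 were at the level, 3 below and 3 unresolved, with Junb at 149 CPM against 14.2. Of 13 p53 and senescence genes 3 stood above, 3 were at the level, 3 below and 4 unresolved. Igfbp5 had 132 CPM against 0 UMIs and lay at 13.2 without cluster 3, and Igfbp3 had 30.9 against 262.5, and 10.1 without cluster 3.

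Mitochondrial, ribosomal protein and unnamed Gm or Rik genes, and genes without coordinates, were left out of the following count. The number of genes at 20 CPM or more in both PC and pOPC was not counted, so no share is given. Of these genes 5 had 0 UMIs in PC-2F: Adcyap1r1, Camk1d, Mtap, Rgs17 and Slc38a1. All 5 had 0 UMIs in PC-3F as well. Mtap and Slc38a1 are also among the 346 genes taken from pOPC above, and were already counted there. Mtap, a methionine salvage enzyme (chromosome 4, 89137122 to 89181081), gave 107 UMIs in pOPC and 53 in PC. Its neighbours Cdkn2a (89274471 to 89294653) and Cdkn2b (89306299 to 89311039), cell cycle inhibitors, gave 21 and 10 UMIs in PC and 0 each in PC-2F and PC-3F. Genes on either side were seen in PC-2F, Klhl9 (88718292 to 88722465) with 135 UMIs and Dmrta1 (89679436 to 89694772) with 12. The cause was not tested.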
